A study of Mus musculus with 4 samples.

Results

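Axon guidance ligands and receptors were taken from the gene table by symbol: class 3 to 7 semaphorins and their plexin and neuropilin receptors, ephrins and Eph receptors, Slits and Robos, and netrins and Unc5 receptors. The rule found 63 of the 15768 genes in the table, 35 encoding ligands and 28 encoding receptors. The libraries came from JoMa1.3, a mouse neural crest stem cell line that is labelled wild type and is kept dividing by a conditionally active oncogene, so that every group shares that background. One group received a pool of non-targeting siRNAs (control siRNA) and the other a pool of siRNAs against Stk11, the gene for the kinase LKB1 (Lkb1 siRNA). Both were transfected at 60 nM and harvested as progenitors after 72 h, and the labels name jetPRIME and RNAiMax without saying which culture received which. Each group held 2 libraries, 1 in batch 1 and 1 in batch 2, and the study asked what lies downstream of a loss of Lkb1. Values below are listed in the order batch 1, batch 2.

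Guidance cues steer growing axons and migrating cells by attraction or repulsion. Secreted class 3 semaphorins bind neuropilins, which signal through plexins, while most membrane-bound semaphorins bind plexins directly. Ephrins are themselves anchored in the membrane and signal on contact with Eph receptor tyrosine kinases. Slits act through Robo receptors and netrins through Dcc, neogenin and Unc5 receptors, and neural crest cells use these systems to keep to their migratory routes.

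Library totals lay between 17426719 and 19324675 counts over all genes, and 12222 genes passed the filter on low counts. Stk11 was at 52.7 and 52.1 FPKM (fragments scaled to transcript length and library size) with control siRNA and at 36.3 and 36.9 FPKM with Lkb1 siRNA. In edgeR's quasi-likelihood test with Benjamini-Hochberg adjustment its log2 fold change was -0.55 with an SE of 0.0659 and an adjusted p of 0.0378. Of 16 neural crest markers, 11 had values and 10 were detected at a mean of at least 1 FPKM, among them Tfap2b, Snai2, Twist1 and Pax3. Sox10 and Foxd3 were among the markers without a value. Of the markers of other cells with values, 8 of 10 for smooth muscle and mesenchyme, 3 of 4 for neurons, 2 of 3 for blood cells, 1 of 6 for glia, 1 of 8 for endothelium, 1 of 3 for melanocytes and 0 of 4 for epithelium reached that level.

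Of the 63 guidance genes, 45 were detected at a mean of at least 1 FPKM, 27 of the 35 ligand genes and 18 of the 28 receptor genes. A further 8 had lower means but passed the count filter, so that 53 were tested, 31 for ligands and 22 for receptors. The 10 genes that did not pass were Sema3g, Sema4f, Sema5b, Slit1, Plxna4, Plxnb3, Epha6, Epha8, Ephb1 and Robo2. Of these, Sema5b, Plxnb3 and Epha6 had a single read each over the 4 libraries, within the 3 counts that a count of 0 allows, and no fold is given for any of the 10. Because a gene passed through either group, counts over the 53 describe only those genes.

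The levels summed to between 275.06 and 287.18 FPKM per library for the ligands and between 319.6 and 339.25 FPKM for the receptors. Plxnb2, a receptor for class 4 semaphorins, had the highest level of the set. It was at 79.4 and 80.8 FPKM with control siRNA and at 79.0 and 80.9 FPKM with Lkb1 siRNA, 13.2% of the summed level of all guidance genes and 60.9% of that of the 9 plexins. Its 4 libraries lay close together, and the groups overlapped in FPKM but not in CPM (counts scaled to library size by TMM), at 503.4 and 504.0 against 485.5 and 495.0. The other genes with means above 20 FPKM were, in falling order, Nrp2 (37.3 FPKM), Ephb4 (30.4), Ntn1 (30.2), Sema3a (26.7), Sema3e (25.1), Unc5b (24.5), Epha2 (23.2), Epha3 (21.6) and Nrp1 (20.7). Neighbours in that order such as Ephb4 and Ntn1 did not differ beyond the spread of their libraries, which ran from 28.2 to 31.9 FPKM for Ephb4 and from 28.7 to 33.6 FPKM for Ntn1.

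**Figure D1:**
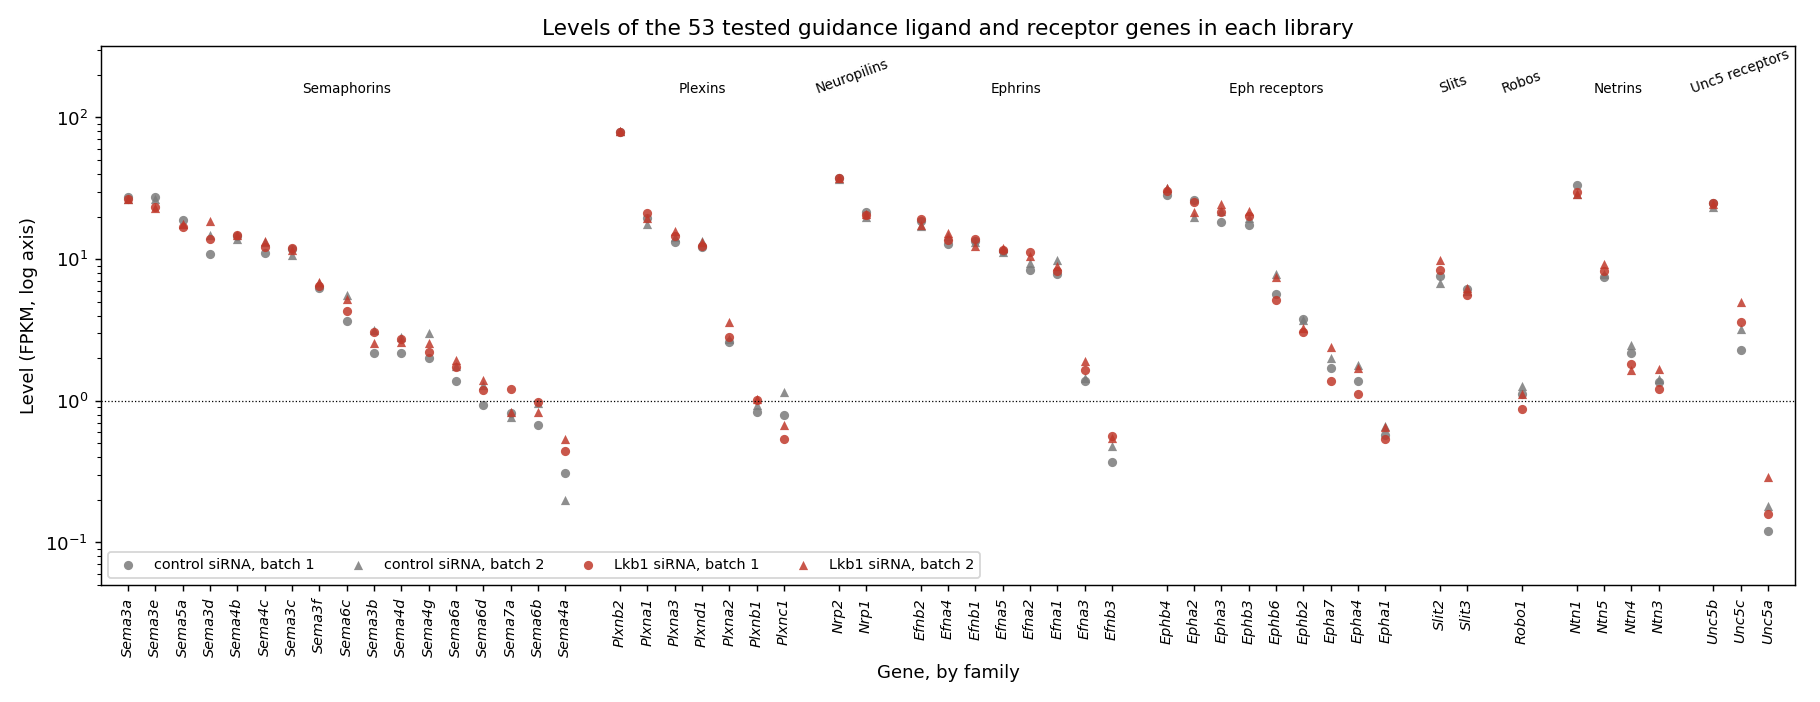
Level in FPKM (log axis) of the 53 tested guidance genes in each of the 4 libraries, ordered by mean level within each family; grey marks control siRNA, red marks Lkb1 siRNA, circles mark batch 1 and triangles mark batch 2, and the dotted line is at 1 FPKM. Plxnb2 stands highest at a mean of 80.03 FPKM, and in most families 1 or 2 members carry most of the level while the points of the 4 libraries lie close together.

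Among the ligands, 14 of the 20 semaphorin genes were detected. The secreted class 3 members, which bind neuropilins, held 6 of 7 detected and summed to 87.3 FPKM on average, against 59.5 FPKM over the 13 membrane-bound or membrane-linked members of classes 4 to 7. Sema3a, a classic repellent of sensory and sympathetic axons, was at 27.4 and 26.5 FPKM in control siRNA libraries and at 26.6 and 26.4 FPKM in Lkb1 siRNA libraries. Sema5a, a transmembrane semaphorin with thrombospondin repeats, led the membrane-bound members at 19.01 and 17.8 against 16.8 and 17.7 FPKM. In FPKM the groups overlapped for Sema3a, although in CPM they did not (151.2 and 144.3 against 143.3 and 141.5), while for Sema5a both control siRNA libraries lay just above both Lkb1 siRNA libraries. Neither gene passed in either fit (log2 fold changes -0.05, SE 0.0662, and -0.13, SE 0.0717).

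Of the 8 ephrins, 7 were detected, all 5 glycolipid-anchored ephrin-A genes among them. The highest was Efnb2, a transmembrane ephrin known from arterial endothelium and neural crest guidance, at 18.7 and 17.1 against 19.3 and 17.4 FPKM, with no separation of the groups. Netrins were all detected, and Ntn1, the founding secreted netrin, made up 72.1% of their summed level. Slit2 and Slit3, both secreted repellents, had means of 8.15 and 5.97 FPKM, while Slit1 was at 0.02 to 0.05 FPKM in every library.

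Among the receptors, Nrp2 and Nrp1, the co-receptors that bind class 3 semaphorins, were at 36.6 to 37.6 FPKM and at 19.8 to 21.6 FPKM over the 4 libraries. Class A plexins, their usual signalling partners, summed to 36.9 FPKM on average, led by Plxna1. Eph receptors held 8 of 12 detected, with Ephb4, the receptor of ephrin-B2, at 28.2 and 31.6 against 30.1 and 31.9 FPKM. Unc5b, a repulsive netrin receptor, made up 86.8% of the Unc5 level at 25.03 and 23.3 against 25.1 and 24.4 FPKM. Robo1, the only Robo detected, was at 1.12 and 1.27 against 0.88 and 1.12 FPKM, near the detection limit used here. Slit ligands therefore outweighed Robo receptors in summed level in every library, whereas the other pairs of families were within a factor of 2 of each other.

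The ratio of summed ligand level to summed receptor level was compared by family over the 4 libraries. For Slits over Robos it was 12.1 and 9.93 in the control siRNA libraries and 15.8 and 14.2 in the Lkb1 siRNA libraries. Both Lkb1 siRNA libraries lay above both controls, with log2 changes of 0.38 in batch 1 and 0.51 in batch 2. The receptor side of this ratio rests almost wholly on Robo1, which made up 98.7% of the Robo level and was close to 1 FPKM.

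For netrins over Unc5 receptors the ratio was 1.63 and 1.52 in the control siRNA libraries against 1.42 and 1.397 in the Lkb1 siRNA libraries. The groups did not overlap, and the ratio was lower by log2 changes of -0.20 in batch 1 and -0.12 in batch 2. With Neo1, the gene for the netrin receptor neogenin, counted among the receptors, the mean ratio was 0.82 in place of 1.49 and the log2 change was -0.02 in place of -0.16. Dcc, the main attractive netrin receptor, had no value here.

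For semaphorins over plexins and neuropilins the ratio was 0.759 and 0.800 against 0.759 and 0.781, and for ephrins over Eph receptors it was 0.719 and 0.707 against 0.738 and 0.684. In both systems the groups overlapped. Within the ephrin system, the ratio of ephrin-A to EphA genes averaged 0.937 and that of ephrin-B to EphB genes 0.531 over the 4 libraries. For all ligands over all receptors it was 0.861 and 0.865 against 0.851 and 0.847, a log2 change of -0.02. With 2 libraries against 2, an exact permutation test cannot give a two-sided p below 0.333, so these ratios are a description.

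**Figure D2:**
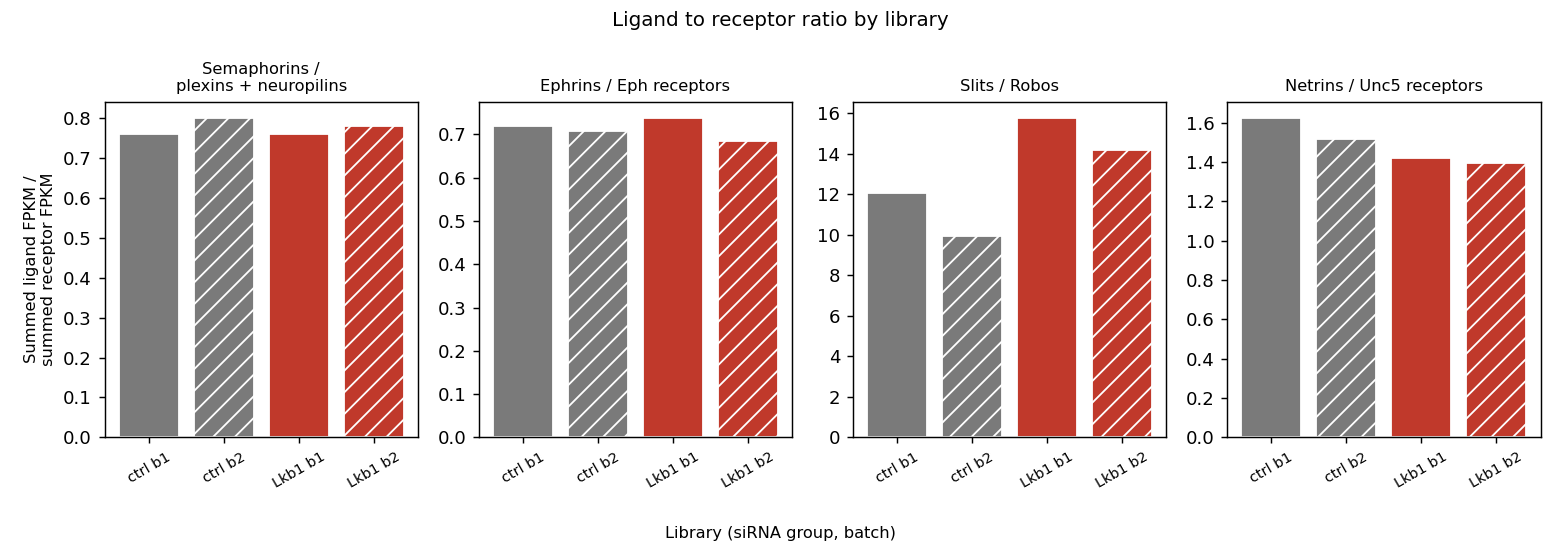
Summed ligand FPKM divided by summed receptor FPKM for 4 guidance systems, 1 bar per library; grey is control siRNA, red is Lkb1 siRNA, and hatching marks batch 2. The Slit bars stand at 9.93 to 15.8 with both red bars above both grey bars, the netrin bars at 1.397 to 1.63 with both red bars below, and the semaphorin and ephrin bars of the groups overlap.

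No guidance gene passed the threshold of an adjusted p under 0.05 for the effect of Lkb1 siRNA in edgeR's quasi-likelihood test without a block, against 0.0818% of all genes tested (0.0327% higher and 0.0491% lower). At an unadjusted p under 0.05, 8 of 53 guidance genes lay below it (15.1%), 4 higher and 4 lower, against 11.1% of all genes. DESeq2 likewise called 0 of the 53 and 0.401% of all genes, with 4 of the 53 (7.55%) at an unadjusted p under 0.05, against 5.46% of all genes. Limma on log2(FPKM + 1) called 0 of all 12222 genes, with 7 of the 53 (13.2%) at an unadjusted p under 0.05, against 10.7% of all genes. Means were higher after Lkb1 siRNA for 30 guidance genes and lower for 23, against 50.2% higher among all genes. Scaling by library size alone moved the median log2 fold change of all genes from 0.00 to 0.03 and this split to 36 higher and 17 lower. By role, 20 of 31 ligands and 10 of 22 receptors were higher, with median log2 fold changes of 0.03 and -0.00.

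The median SE of a guidance gene was 0.117 on the log2 scale. Of the 53, 19 had groups that did not overlap in CPM, 11 with both Lkb1 siRNA libraries above and 8 below, which is 35.8% against 42.6% of all genes. The change had the same sign in both batches for 34 genes (64.2%, against 67.2% of all genes). Guidance transcripts are long: 46 of the 53 lay above the median of all genes in counts per FPKM, which grows with length. The longest decile of all genes by this measure had a median log2 fold change of 0.04, against -0.07 in the shortest decile, and the part of length in the directions above was not tested. A smaller share of cells of a type and less RNA per cell cannot be told apart in these bulk libraries.

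**Figure D3:**
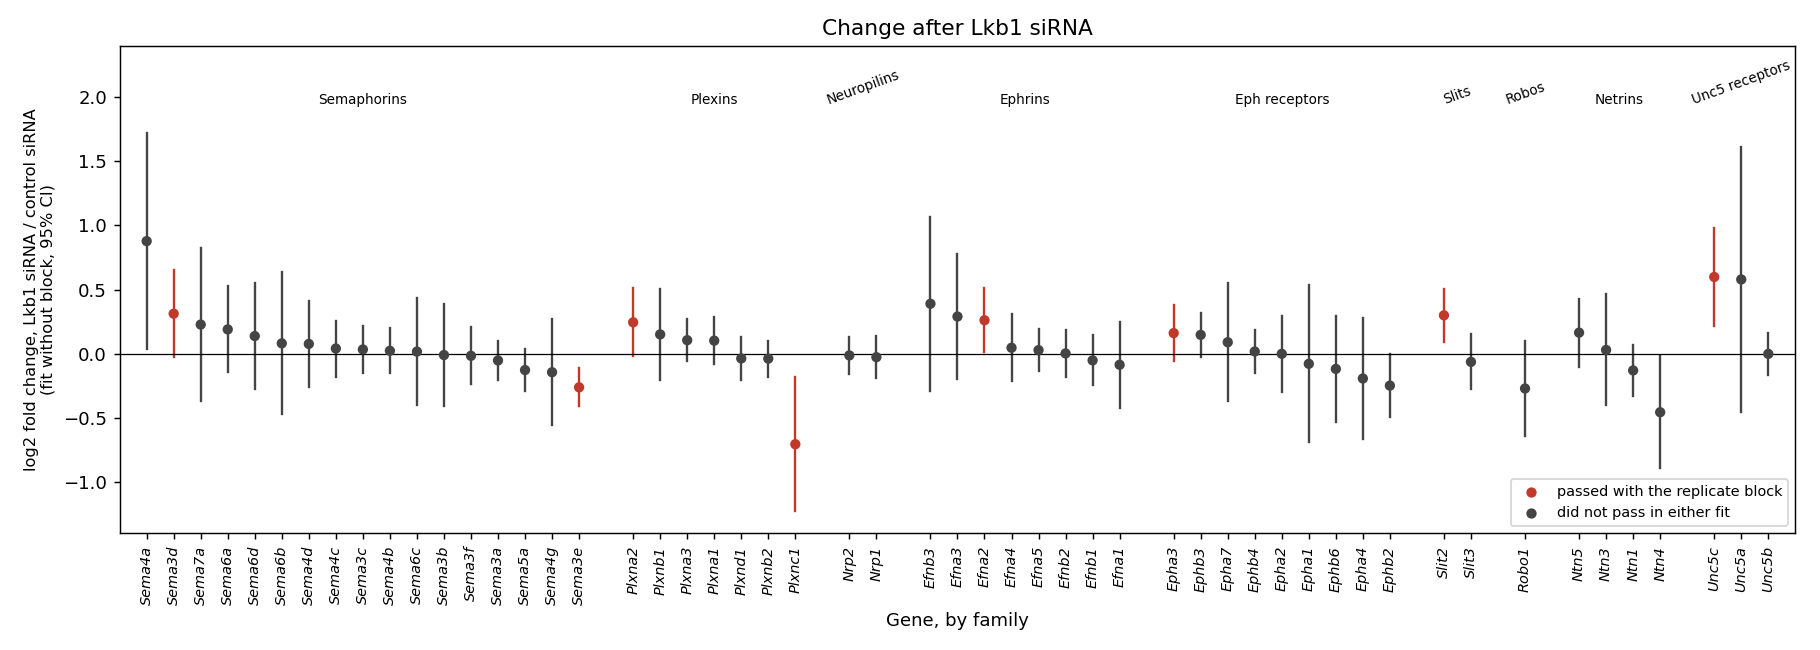
Fitted log2 fold change of Lkb1 siRNA over control siRNA for the 53 tested guidance genes, by family, with 95% confidence intervals from the fit without a block (2 libraries per group). Red marks the 8 genes that passed with batch as a replicate block; no gene passed without it, and most intervals cross 0.

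The labels state the batch of each library, so libraries can also be compared within batches, by adding batch to the model as a replicate block. With the block 8 of 53 guidance genes passed, 15.1% against 13.6% of all genes tested. Of these 6 were higher (11.3%, against 6.59% of all genes) and 2 were lower (3.77%, against 6.99% of all genes). The blocked fit has 1 residual degree of freedom, so it leans on the spread of other genes. DESeq2 with the block called 1 guidance gene, Unc5c, and 1.02% of all genes, and gave no adjusted p for Efna2 and Plxnc1. By role, 4 of 31 ligands (Sema3d, Slit2, Efna2 and Sema3e) and 4 of 22 receptors (Unc5c, Epha3, Plxna2 and Plxnc1) were among the 8.

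Promoter windows are printed for 4 of these genes, those with the smallest p without the block. Each is the 300-base RefSeq window around the annotated start (mouse build GRCm38.p6), written 5′ to 3′ on the gene's strand, and capitals mark motif matches on either strand. The GC box was searched as GGGCGG. The E-box was searched as CACGTG. The cAMP response element was searched as TGACGTCA. The core of a TEAD site was searched as GGAATG, and the TATA box was searched as TATAAA.
Unc5c, chr3:141465314-141465613 (plus strand): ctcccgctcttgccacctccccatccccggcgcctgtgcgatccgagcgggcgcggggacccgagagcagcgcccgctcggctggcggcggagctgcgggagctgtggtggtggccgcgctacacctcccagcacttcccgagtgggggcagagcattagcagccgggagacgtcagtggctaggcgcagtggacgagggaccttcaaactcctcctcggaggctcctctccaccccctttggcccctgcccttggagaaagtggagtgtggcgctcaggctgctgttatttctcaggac
Slit2, chr5:47982905-47983204 (plus strand): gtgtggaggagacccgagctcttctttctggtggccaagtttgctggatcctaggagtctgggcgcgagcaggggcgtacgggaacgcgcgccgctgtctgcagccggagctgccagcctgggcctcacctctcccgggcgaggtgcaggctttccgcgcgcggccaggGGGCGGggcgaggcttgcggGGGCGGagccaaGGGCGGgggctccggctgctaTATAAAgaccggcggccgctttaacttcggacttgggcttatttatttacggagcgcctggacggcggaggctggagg
Sema3e, chr5:14025026-14025325 (plus strand): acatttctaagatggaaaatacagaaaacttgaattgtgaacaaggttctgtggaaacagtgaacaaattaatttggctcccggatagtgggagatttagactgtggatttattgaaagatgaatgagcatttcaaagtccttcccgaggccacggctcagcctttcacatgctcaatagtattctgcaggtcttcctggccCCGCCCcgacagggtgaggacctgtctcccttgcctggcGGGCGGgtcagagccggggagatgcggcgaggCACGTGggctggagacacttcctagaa
Plxnc1, chr10:94944796-94945095 (minus strand): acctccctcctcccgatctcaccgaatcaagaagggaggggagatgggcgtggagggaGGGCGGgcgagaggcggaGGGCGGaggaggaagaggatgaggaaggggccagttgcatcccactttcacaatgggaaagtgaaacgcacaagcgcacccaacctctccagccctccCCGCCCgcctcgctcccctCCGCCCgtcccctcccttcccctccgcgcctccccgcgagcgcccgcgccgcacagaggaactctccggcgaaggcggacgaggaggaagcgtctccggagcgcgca
The Unc5c window held none of the 5 motifs and 24 CpG pairs. The Slit2 window held 3 GC boxes, a TATA box and 30 CpG pairs, the Plxnc1 window 4 GC boxes and 30 CpG pairs, and the Sema3e window 2 GC boxes, 1 E-box and 11 CpG pairs. Windows were found for 55 of the 63 guidance genes, 71 in all. A GC box stood in 70.4% of them, against 35.7% of all 32851 windows, and a TATA box in 2.82% against 13.6%. The median GC content was 64.3% against 52.7%. An E-box stood in 7.04% against 7.15%, a cAMP response element in 1.41% against 1.79% and a TEAD site core in 12.7% against 14.7%. The part of GC content in the motif shares was not tested, no match overlapped another in the 4 windows, and a match in letters is not a measured binding site.

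Of the ligands, Slit2, the secreted Robo ligand, was at 7.59 and 6.83 FPKM under control siRNA and at 8.39 and 9.79 FPKM under Lkb1 siRNA. Both Lkb1 siRNA libraries lay above both controls, but by 0.10 on the log2 scale in batch 1 and by 0.49 in batch 2. The log2 fold change was 0.30 (SE 0.0927), with an adjusted p in edgeR of 0.311 without the block and 6.51e-06 with it. Slit3, its close relative, had a log2 fold change of -0.06 (SE 0.0949). Without the block, the Slit2 change was 0.39 without control siRNA replicate 1, and 0.19 when Lkb1 siRNA replicate 2 was left out. Both fits leave 1 library in a group.

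Sema3d, a secreted class 3 semaphorin, was at 10.8 and 14.8 FPKM with control siRNA and at 13.97 and 18.5 FPKM with Lkb1 siRNA. The groups overlapped, because the batch 2 control lay above the batch 1 Lkb1 siRNA library, while within each batch the Lkb1 siRNA library was higher, by 0.32 and 0.30 on the log2 scale. The adjusted p in edgeR was 0.482 without the block and 6.83e-07 with it (log2 fold change 0.31, SE 0.15 without the block). Without the block, the Sema3d change was 0.50 when Lkb1 siRNA replicate 1 was left out and 0.54 without control siRNA replicate 2. It was 0.12 without control siRNA replicate 1, and 0.10 when Lkb1 siRNA replicate 2 was left out. Such fits leave 1 library in a group, so part of the difference between batches enters these changes. Sema3a, the next gene on chromosome 5 in the RefSeq gene order, had a log2 fold change of -0.05.

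Sema3e, a class 3 semaphorin that binds Plxnd1 without a neuropilin, went the other way. It was at 27.4 and 26.7 FPKM under control siRNA and at 23.2 and 23.0 FPKM under Lkb1 siRNA. The groups were separate and both batches gave a like change, -0.28 and -0.24 on the log2 scale. In CPM the level went from 179.7 ± 5.58 to 149.8 ± 1.43 (SD, n = 2 per group). The log2 fold change of -0.26 (SE 0.066) had the smallest p of the guidance genes without the block, with an adjusted p in edgeR of 0.214, and of 5.08e-06 with the block. Plxnd1 itself was at 12.2 and 13.4 against 12.4 and 13.2 FPKM, with overlapping groups.

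Efna2, a glycolipid-anchored ephrin, was at 8.34 and 9.33 FPKM with control siRNA and at 11.2 and 10.5 FPKM with Lkb1 siRNA. The groups did not overlap. Its log2 fold change was 0.26 (SE 0.111), with an adjusted p in edgeR of 0.427 without the block and of 0.0488 with it, at the edge of the threshold. The other ephrins had log2 fold changes from -0.09 (Efna1) to 0.39 (Efnb3, under 1 FPKM), and did not pass in either fit.

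Of the receptors, Unc5c, which mediates repulsion by netrin, had the largest change among detected members. It was at 2.30 and 3.22 FPKM under control siRNA and at 3.61 and 4.95 FPKM under Lkb1 siRNA. The groups were separate, and within both batches the Lkb1 siRNA library was higher by like amounts, 0.61 and 0.59 on the log2 scale. In CPM it went from 25.3 ± 5.63 to 38.2 ± 8.28 (SD, n = 2 per group). The log2 fold change was 0.60 (SE 0.17, 95% confidence interval 0.21 to 0.98), with an adjusted p in edgeR of 0.27 without the block and of 1.72e-12 with it. Without the block, the Unc5c change was 0.85 without control siRNA replicate 2 and 0.81 when Lkb1 siRNA replicate 1 was left out. It was 0.39 without control siRNA replicate 1, and 0.36 when Lkb1 siRNA replicate 2 was left out. Such fits leave 1 library in a group, so part of the difference between batches enters these changes.

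The transcript table divided Unc5c between 2 transcripts. The more abundant was at 2.30 and 2.51 FPKM with control siRNA and at 3.11 and 3.15 FPKM with Lkb1 siRNA, and the other at 0.00 and 0.71 against 0.50 and 1.79 FPKM. Both transcripts were higher in the Lkb1 siRNA library of each batch, and the minor one made up 0.0 to 36.2% of the gene. The division of reads between transcripts is an estimate and was not tested. The other Unc5 receptors did not pass in either fit: Unc5b had a log2 fold change of -0.00 (SE 0.0717), and Unc5a was below 0.3 FPKM in every library.

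Plxnc1, the receptor of Sema7a, was at 0.79 and 1.16 FPKM under control siRNA and at 0.54 and 0.68 FPKM under Lkb1 siRNA. The groups did not overlap, and the log2 change was -0.58 in batch 1 and -0.80 in batch 2. Its mean lay under the detection limit of 1 FPKM, at 6.85 ± 1.89 against 4.196 ± 0.702 CPM (SD, n = 2 per group). The log2 fold change was -0.71 (SE 0.233), with an adjusted p in edgeR of 0.33 without the block and of 7.54e-04 with it. Without control siRNA replicate 1 it passed without the block (log2 fold change -0.96, adjusted p in edgeR = 0.0134), and without control siRNA replicate 2 its change was -0.39 (adjusted p in edgeR = 0.478). Sema7a, its ligand, was at 0.82 and 0.77 against 1.22 and 0.83 FPKM.

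Plxna2, a class A plexin, was at 2.60 and 2.74 FPKM with control siRNA and at 2.83 and 3.62 FPKM with Lkb1 siRNA. The groups were separate, with the batch 2 Lkb1 siRNA library the highest of the 4. Its log2 fold change of 0.24 (SE 0.117) had an adjusted p in edgeR of 0.482 without the block and of 0.017 with it. Without the block, its change was 0.41 when Lkb1 siRNA replicate 1 was left out and 0.06 when Lkb1 siRNA replicate 2 was. All 3 tested class A plexins had means above their controls, although Plxna1 (log2 fold change 0.10, SE 0.0804) and Plxna3 (0.10, SE 0.0735) did not pass in either fit.

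Epha3, a receptor for ephrin-A ligands, was at 18.2 and 22.1 FPKM under control siRNA and at 21.4 and 24.7 FPKM under Lkb1 siRNA. The groups overlapped, since the batch 2 control lay above the batch 1 Lkb1 siRNA library. Its log2 fold change was 0.16 (SE 0.0975), with an adjusted p in edgeR of 0.567 without the block and of 0.0165 with it. Without the block, the change was 0.04 without control siRNA replicate 1 and, when Lkb1 siRNA replicate 2 was left out, 0.06. It was 0.29 without control siRNA replicate 2 and, when Lkb1 siRNA replicate 1 was left out, 0.26.

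**Figure D4:**
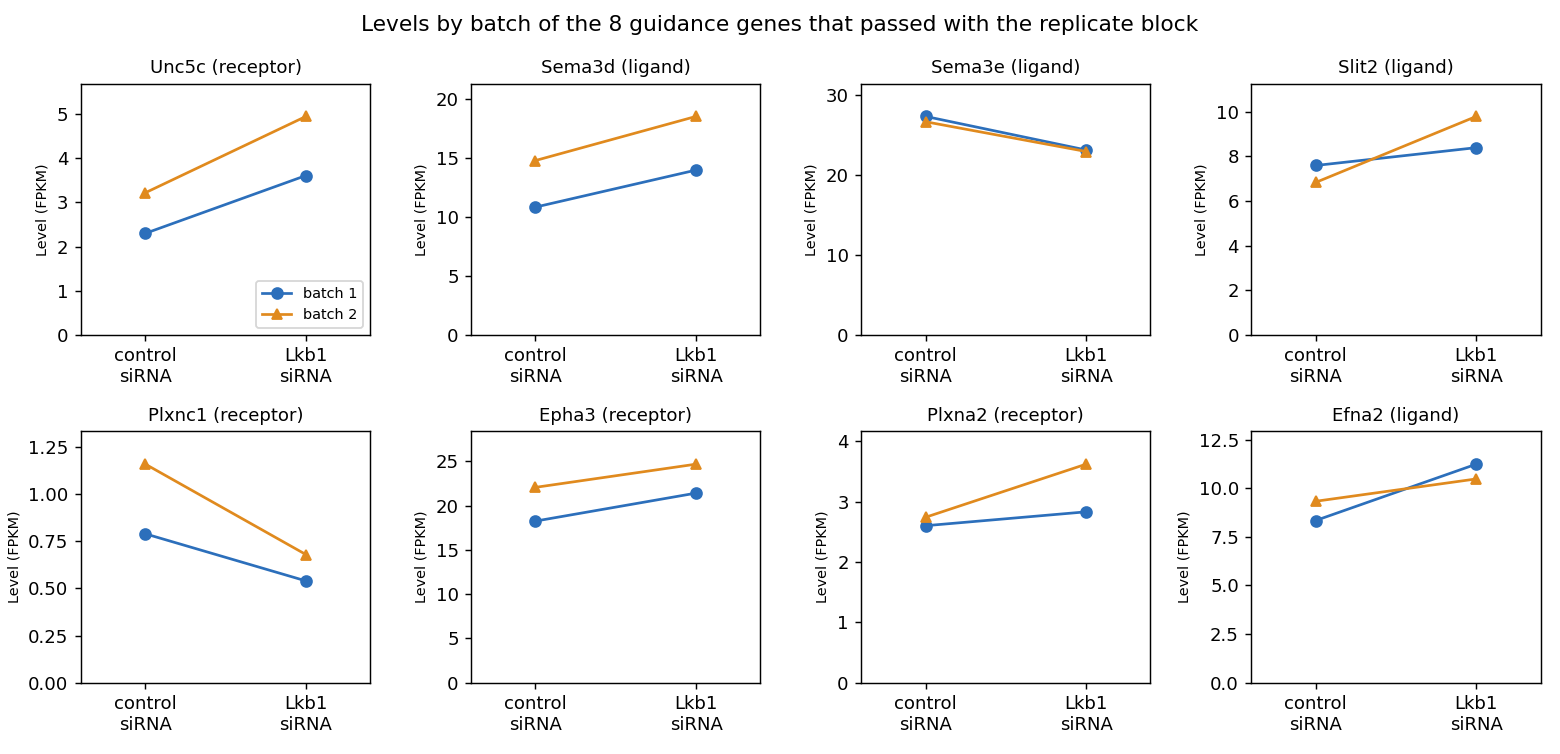
Level in FPKM of the 8 guidance genes that passed with the replicate block, 1 panel per gene, with a line joining the control siRNA and Lkb1 siRNA library of each batch (blue circles batch 1, orange triangles batch 2; every axis starts at 0). The lines of Unc5c and Sema3d run nearly parallel with batch 2 higher (4.95 against 3.61 FPKM for Unc5c after Lkb1 siRNA), Sema3e has nearly the same line in both batches, and the lines of Slit2 and of Efna2 cross.

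Some members with small p without the block did not pass in either fit. Ntn4, a netrin that also binds laminins, was at 2.17 and 2.49 FPKM with control siRNA and at 1.82 and 1.66 FPKM with Lkb1 siRNA. The groups were separate (log2 fold change -0.46, SE 0.193, adjusted p in edgeR = 0.426, or 0.0847 when blocked). Ephb2, a receptor for B-class ephrins, was at 3.79 and 3.74 against 3.04 and 3.26 FPKM, also separate (log2 fold change -0.25, SE 0.11, adjusted p in edgeR = 0.447, or 0.0861 when blocked). Sema4a, a membrane-bound semaphorin, had the largest fitted change of all at a low level, 0.749 ± 0.253 CPM in control siRNA against 1.37 ± 0.248 CPM in Lkb1 siRNA libraries (SD, n = 2 per group), with a log2 fold change of 0.88 with an SE of 0.373, and of 0.56 without control siRNA replicate 2.

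The guidance genes also differed between batches. In the fit with group and batch, 13 of 53 guidance genes passed between batch 2 and batch 1 (24.5%, against 12.9% of all genes), 9 higher in batch 2 (6.3% of all genes) and 4 lower (6.62% of all genes). By role these were 5 of 31 ligands (16.1%) and 8 of 22 receptors (36.4%), with 5 of the 9 tested Eph receptors among them. The fitted level was higher in batch 2 for 37 of the 53 guidance genes (69.8%, against 51.6% of all genes), with a median log2 difference of 0.10, against 0.01 over all genes. When batch alone was in the model, edgeR called 0 of 12222 genes. In that fit 1231 genes (10.1%) lay at an unadjusted p under 0.05, 10 of them guidance genes (18.9% of the 53). With group and batch in DESeq2, 2 guidance genes passed, Sema3d higher and Epha2 lower, against 48 higher and 67 lower of all 12222 genes. Unc5c, Plxnc1, Ephb6 and Sema6c, which passed in edgeR, had no adjusted p in DESeq2. What the batch label stands for is not given in the sources used here.

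Sema3d had the smallest p, with a log2 difference of 0.41 (adjusted p in edgeR = 1.94e-11). Both batch 2 libraries were above the batch 1 library of the same group. Epha2, an Eph receptor for ephrin-A ligands, was lower in batch 2, at 26 and 19.95 FPKM under control siRNA and at 25.4 and 21.5 FPKM under Lkb1 siRNA. Its batch difference was -0.34 (SE 0.0551, adjusted p in edgeR = 1.18e-07), while its siRNA change was -0.00 (SE 0.132). Ephb6, a kinase-dead Eph receptor, was at 5.70 and 7.84 against 5.19 and 7.48 FPKM, higher in batch 2 in both groups (log2 difference 0.48, SE 0.0872, adjusted p in edgeR = 3.85e-06).

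Sema6c, a transmembrane semaphorin, was likewise higher in batch 2, at 3.65 and 5.59 against 4.28 and 5.22 FPKM (log2 difference 0.44, adjusted p in edgeR = 3.24e-04). The Eph receptors Epha3, Epha4 and Epha7 were higher in batch 2 by log2 differences of 0.22, 0.47 and 0.45 (adjusted p in edgeR = 4.31e-04, 0.00609 and 0.00535). Ntn1, Plxna1 and Efnb2 were lower in batch 2 by -0.15, -0.14 and -0.15 on the log2 scale. Unc5c, Sema3d, Epha3 and Plxnc1 passed both for batch and, with the block, for Lkb1 siRNA. For Unc5c the batch difference was 0.45 (adjusted p in edgeR = 6.16e-07), beside a siRNA change of 0.60.

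Several batch differences moved by more than 1.5 times when 1 library was left out and batch alone was in the model. Such a fit leaves 1 library in a batch, so part of the siRNA change enters its batch difference. That of Unc5c was 0.18 without control siRNA replicate 1 and, when Lkb1 siRNA replicate 2 was left out, 0.12. It was 0.72 without control siRNA replicate 2 and, when Lkb1 siRNA replicate 1 was left out, 0.78. Over the same 4 fits, that of Sema3d lay between 0.25 (without Lkb1 siRNA replicate 2) and 0.58 (without Lkb1 siRNA replicate 1). Epha3 lay between 0.31 (without Lkb1 siRNA replicate 1) and 0.13 (without control siRNA replicate 1). Plxnc1 ranged between 0.82 (without Lkb1 siRNA replicate 2) and 0.02 (without control siRNA replicate 2). Ntn1 ranged from -0.27 without Lkb1 siRNA replicate 1 to -0.04 without control siRNA replicate 1, and Plxna1 from -0.22 without Lkb1 siRNA replicate 2 to -0.08 without control siRNA replicate 2.

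**Figure D5:**
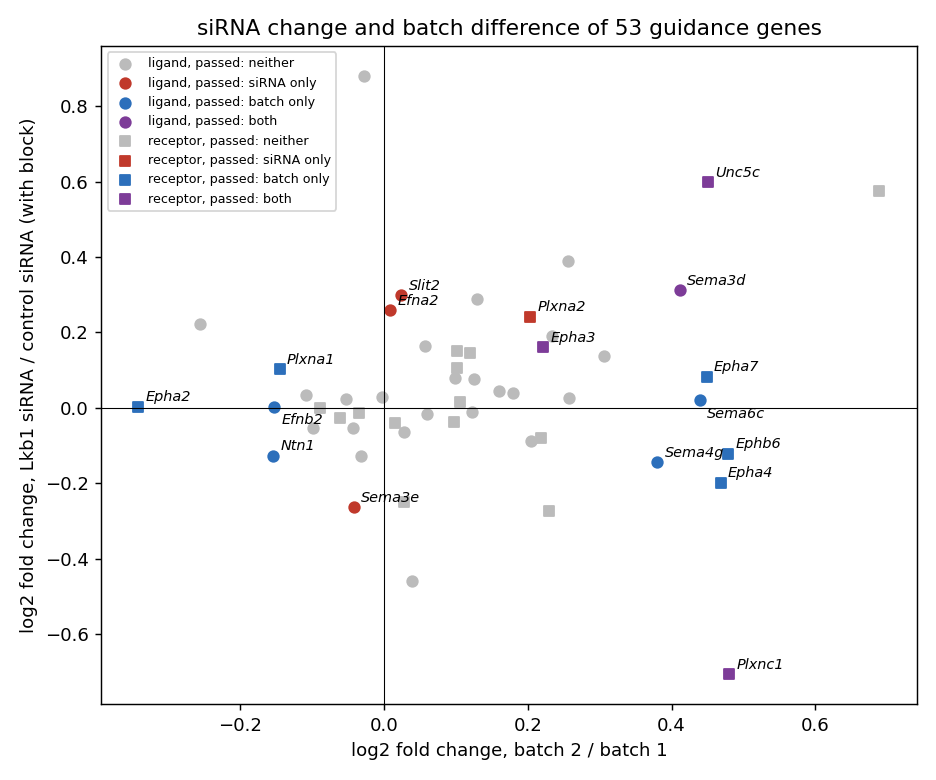
Log2 fold change of batch 2 over batch 1 (horizontal) against log2 fold change of Lkb1 siRNA over control siRNA in the fit with the block (vertical) for the 53 tested guidance genes; circles are ligands, squares are receptors, and colours show which comparison each gene passed. Unc5c stands at 0.45 and 0.60, Epha2 at -0.34 and 0.00, and Sema3e at -0.04 and -0.26; both axes come from the same 4 libraries.

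The other genes of these pathways were counted in 4 lists of 109 genes, 88 of which were tested. Without the block 0 of the 88 passed (edgeR's quasi-likelihood test), with 10 of the 88 at an unadjusted p under 0.05, against 11.1% of all genes. With the block 2 passed as higher and 8 as lower (11.4%, against 13.6% of all genes). Among co-receptors and adhesion partners, 2 of 19 passed with the block, both lower. Neo1, the netrin and repulsive guidance molecule receptor, was at 24.7 and 24.8 FPKM with control siRNA and at 21.2 and 22.1 FPKM with Lkb1 siRNA (log2 fold change -0.22, SE 0.0655, adjusted p in edgeR = 0.283, or 1.61e-04 when blocked). Sdc2, a heparan sulfate proteoglycan, had a log2 fold change of -0.22 (SE 0.0687, adjusted p in edgeR = 0.311, or 2.14e-04 when blocked).

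Among semaphorin and plexin effectors, 6 of 21 passed with the block (28.6%, against 13.6% of all genes), 2 as higher and 4 as lower, where 6.59% and 6.99% of all genes did. Rnd1, a small GTPase that binds plexins, was at 2.91 and 2.89 FPKM under control siRNA and at 1.81 and 1.76 FPKM under Lkb1 siRNA, with no overlap between groups (log2 fold change -0.74, SE 0.185, adjusted p in edgeR = 0.214, or 0.00157 when blocked). Rnd3, a related GTPase, was at 56.9 and 56.0 against 65.8 and 69.3 FPKM, in the opposite direction (log2 fold change 0.22, SE 0.0673, adjusted p in edgeR = 1.97e-04 when blocked). Dpysl3, a collapsin response mediator, had a log2 fold change of -0.25, Rras of -0.28, Mical2 of -0.24 and the kinase Cdk5 of 0.25, and all 4 passed when blocked. Means were higher for 6 of 19 co-receptors and adhesion partners and for 6 of 21 semaphorin and plexin effectors, against 50.2% of all genes. Of Eph and ephrin effectors 14 of 21 had higher means, and none of the 21 passed in either fit. Those with the smallest p were the Rac activator Tiam1 (log2 fold change 0.13, unadjusted p = 0.121) and Pdzrn3 (-0.17, unadjusted p = 0.164).

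Markers of cell types also moved between the groups with the block, and none of them passed without it. Among the 11 tested neural crest markers, 2 passed with the block (18.2%, against 13.6% of all genes), Pax3 as higher and Snai2 as lower. All 8 tested smooth muscle and mesenchyme markers had lower means after Lkb1 siRNA, 6 passed as lower with the block, against 6.99% of all genes, and none passed without it. Their summed level was 3490 to 3771 FPKM with control siRNA and 2943 to 3105 FPKM with Lkb1 siRNA. The highest of them, Vim, was at 1884 and 1961 against 1561 and 1573 FPKM. Cnn1 and Myh11, which were not tested, lay at 0.00 to 0.05 and at 0.03 to 0.07 FPKM. Only 4 of 12 markers of enteric and peripheral neurons had values. The 3 tested, Tubb3, Map2 and Uchl1, were higher and passed with the block, as 6.59% of all genes did, and none passed without it. Tubb3 was at 7.75 and 7.71 against 11.6 and 8.24 FPKM, and Map2 at 1.65 and 1.43 against 1.82 and 2.23 FPKM. Uchl1 was at 16.87 and 12.08 against 19.83 and 16.75 FPKM, with overlapping groups. The 4 markers with values summed to 21.2 to 26.3 against 27.2 to 33.3 FPKM, and Elavl3 was at 0.00 to 0.02 FPKM. Of the 3 tested glial markers, Erbb3 passed with the block as lower and the other two had higher means without passing, while Gfap was under 0.2 FPKM in every library. Of the 2 tested endothelial markers, Flt1 passed with the block as lower at 2.09 and 1.81 against 1.59 and 1.4 FPKM, and Eng did not pass at 0.57 and 0.41 against 0.60 and 0.43 FPKM. Emcn was at 0.19 to 0.31 FPKM, while Pecam1, Cdh5, Kdr and Tek were under 0.2 FPKM in every library. Blood cell markers summed to 5.07 to 6.06 against 3.92 to 4.67 FPKM, and neither of the 2 tested passed. These 2 went opposite ways. Hba-a1 was at 4.99 and 4.03 against 3.08 and 2.66 FPKM, and Cd68 at 0.95 and 0.92 against 1.51 and 1.14 FPKM. The part of these cell type markers in the guidance gene values was not tested.

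The transcript table listed 260 transcripts of the 63 genes. Of the 45 detected guidance genes, 12 had 1 transcript and 33 had more, and in 10 the leading transcript carried less than 50% of the level. Nrp2 was spread over 6 transcripts, with the leading one at 56.3 and 61.6% of the gene's level in the control siRNA libraries and at 52.6 and 55.1% in the Lkb1 siRNA libraries. In Efna5, a glycolipid-anchored ephrin, the leading transcript made up 70.5 and 76.1% against 64.8 and 62.9%. In both genes the share was lower in the Lkb1 siRNA libraries, with no test. Both are examples named after their values were seen. The share of the leading transcript by mean level was also lower in both Lkb1 siRNA libraries for Sema3a. For Ephb4 it was higher in both Lkb1 siRNA libraries than in both controls. How many of the 33 genes went each way was not counted, so these examples give no common direction. Sema3d, Epha3, Plxna2 and Slit2 came almost wholly from 1 transcript, at means of 95.3, 95.9, 97.6 and 91.1% of the gene.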

How the data were processed

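RNA-seq of 4 libraries was read from a gene and a transcript table. Per the submitters' processing notes, HISAT2 2.0.4, Bowtie2 2.2.5 and RSEM 1.2.8 were used with build GRCm39, and the role of each tool and the annotation release were not given in the sources used here. The deposited read counts are expected counts, estimated by the authors per gene (5.73 to 5.97% of values are not whole), and the FPKM values are the authors' deposited levels per length and depth. A doubled decimal point in 14 gene cells and 31 transcript cells was read as 1 point, and 16 further per-library columns were not used.

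Rounded counts went into edgeR 4.0.16 under R 4.3.3 (robust quasi-likelihood F-test, TMM, minimum count 10) on all 12222 genes that passed the filter, with Benjamini-Hochberg adjustment and a threshold of 0.05. SE values come from the F statistic, and CPM is scaled by TMM. The main fit had group alone. Per the labels, replicates of the same number share a batch, which pairs them across groups (correlation of same-batch deviations 0.259), and a fit with batch as a replicate block stands beside it. The labels do not say that cultures were otherwise independent, so p-values measure only the spread between these libraries.

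Alternatives were other scalings and filters, DESeq2 1.42.0, limma 3.58.1 on log2(FPKM + 1) and log2(FPKM + 0.1), and leaving out each library. With 1 library left out, siRNA and batch were unbalanced, and each fit held group alone or batch alone. Part of the siRNA change and of the batch difference then enters the other. The code was tested on simulated data. Named genes were Stk11, members passing in either fit, the 5 members with the smallest p for siRNA and for batch in each direction, the highest member and the one with the smallest p of each family, and from each pathway list the passing genes or the 2 with the smallest p; Sema7a, Plxnd1, Slit3, Plxna3, Unc5a, Efna1, Efna5, Efnb3, Epha4, Epha7, the undetected members and the transcripts were named after their values were seen. Of the 4 pathway lists, 1 enters only the total and is not reported here by itself. The members and lists were chosen with earlier results of these data known. Promoter windows are from RefSeq (GRCm38.p6), and none of their coordinates was converted.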

Additional observations from a re-analysis of the deposited data

How the results depend on the processing

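The median SE was 0.117 on the log2 scale, with 2 libraries per group. Over the alternatives, 268 of 315 siRNA values of the 25 named members kept their direction and their side of the threshold, 14 moved past it, and 33 changed direction. Of 238 batch values, 171 kept both, 51 were no longer past the threshold, 2 moved past it and 14 changed direction. No value that changed direction passed in that setting, and the largest log2 value it turned from was 0.131 in size for siRNA and 0.042 for batch. The cause was not tested. With DESeq2 and the block, 18 values had no adjusted p and were left out.

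With batch as a replicate block, edgeR called 806 genes higher and 854 lower (main 4 and 6), among them 6 guidance genes higher and 2 lower; DESeq2 gave 18 higher and 31 lower genes, or 48 and 77 when blocked, 1 guidance gene among the higher. The other settings called 2 higher and 1 lower (library size alone), 13 and 32 (at least 1 count in any library), 2 and 2 (mean of at least 5 CPM) and 0 and 0 (limma with either pseudocount). Leaving out 1 library gave 24 to 136 genes higher and 42 to 143 lower, with 0 to 2 guidance genes higher and 0 to 1 lower.

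For batch 2 against batch 1, library size alone left 2 guidance genes lower in place of 4, batch alone in the model gave 0 in every count, and DESeq2 gave 48 genes higher and 67 lower, with 1 guidance gene each way. Leaving out 1 library, with batch alone in the model, gave 41 to 118 genes higher (85 without Lkb1 siRNA replicate 1) and 16 to 118 lower (37 without control siRNA replicate 2), with 0 to 2 guidance genes higher and 0 to 1 lower.

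With CPM in place of FPKM the mean ratios were 0.675 (semaphorin), 0.505 (ephrin) and 1.125 (netrin), and the log2 changes -0.049 (semaphorin) and -0.221 (netrin). Neo1 among the receptors gave a netrin ratio of 0.816 and a log2 change of -0.023. The median fold change of ligands minus receptors was 0.047 (semaphorin) and -0.63 (netrin). Leaving out 1 control library moved the semaphorin log2 change between -0.056 and 0.021 and the Slit change between 0.31 and 0.592.

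The siRNA values that changed direction were, with library size alone, Nrp1 (0.006), Nrp2 (0.019), Unc5b (0.031) and Epha2 (0.032). With limma they were Nrp1 (0.004), Nrp2 (0.013), Unc5b (0.032) and Epha2 (0.034), or 0.004, 0.013, 0.033 and 0.036 with the smaller pseudocount. With a mean of at least 5 CPM they were Unc5b (0.002) and Epha2 (0.003), with at least 1 count in any library Efnb2 (-0.005), and with the replicate block Epha2 (0.004, or 0.006 in DESeq2) and Unc5b (0.000 in DESeq2). Leaving out 1 library gave Ntn1 from -0.253 to 0.000, Ephb6 from -0.402 to 0.121, Nrp1 from -0.102 to 0.049, Ephb4 from -0.050 to 0.086, Nrp2 from -0.044 to 0.016, Sema6c from -0.252 to 0.351, Unc5b from -0.066 to 0.064, Efnb2 from -0.075 to 0.080 and Epha2 from -0.193 to 0.216.

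The batch values that changed direction, each with 1 library left out and batch alone in the model, were Sema3e (0.105), Slit2 (-0.013), Efna2 (-0.176) and Sema5a (0.079) without control siRNA replicate 1. Without Lkb1 siRNA replicate 2 they were Sema3e (0.066), Slit2 (-0.236) and Efna2 (-0.073). Without control siRNA replicate 2 they were Ntn4 (-0.297), Sema4a (0.542) and Ephb2 (-0.100), and without Lkb1 siRNA replicate 1 Ntn4 (-0.103), Sema4a (0.179), Ephb2 (-0.097) and Plxnb2 (-0.015).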
